A study of Rattus norvegicus with 6 samples.

Results

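The 10 genes described here build the muscle nicotinic acetylcholine receptor and the machinery that clusters it under the nerve terminal. They are the receptor subunit genes Chrna1, Chrnb1, Chrnd, Chrng and Chrne, the agrin pathway genes Agrn, Lrp4, Musk and Dok7, and Rapsn, the gene of the scaffold protein rapsyn. They were chosen by name, and all 10 had a row among the 16319 gene symbols of the count table. The RNA came from H9c2 cells, a myoblast line from embryonic rat heart, grown in serum-containing medium. There were 3 libraries of Nono-KO cells and 3 libraries of WT cells. Nono encodes a nuclear protein that binds DNA and RNA. The Nono-KO line was made by CRISPR-Cas9 with a single guide RNA and selected in puromycin as a stable line, and the paper describes a homozygous small deletion in the coding region. The paper speaks of selected clones, without saying how many the sequenced RNA came from. The control plasmid in the protocol was pEGFP-N1, and no source used here says whether the sequenced WT cells carried it. Libraries were poly(A)-selected and stranded. The paper calls them biological replicates without saying that they came from separate cultures, so the p-values cover the spread between libraries, which may be technical.

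The muscle receptor is a ring of subunits around a cation channel. The alpha subunit binds acetylcholine, beta and delta are present at every age, and the remaining place is taken by gamma in the fetus and by epsilon in adult fibres. Subunit genes are switched on when myoblasts differentiate, partly by myogenic factors acting on E-boxes, short DNA elements in their promoters. Agrin released by the nerve binds LRP4, which activates the receptor kinase MuSK together with DOK7 inside the cell, and rapsyn then anchors the receptors in dense clusters. The question here was which of these genes differed between Nono-KO and WT cells, and whether the fetal subunit gene Chrng moved against the adult gene Chrne.

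The libraries held 17612958 to 18770188 counts in Nono-KO cells and 18138400 to 19253858 in WT cells. Nono itself had 109, 94 and 96 counts in Nono-KO libraries, against 7329, 5884 and 5519 in WT libraries. Most skeletal muscle markers were higher in Nono-KO cells, as 8 of the 9 listed rose and Myod1 did not pass (adjusted p = 0.0501). Their summed level was 1640 to 2002 CPM in Nono-KO cells and 187 to 348 CPM in WT cells. CPM are counts scaled to library size, here with TMM, a correction for library composition. The labels call the source cardiac muscle. Of 9 cardiac markers listed, Nppa, Ryr2 and Myl7 had at most 3 counts in every library, and 4 were tested. Nkx2-5 (log2 fold change 0.96) and Pln (2.82) rose, while Tnnt2 and Myh6 did not pass. Tnnt2, the most abundant, averaged 128 CPM in Nono-KO cells, against 13.4, 78.0 and 83.0 CPM in WT libraries. Summed cardiac markers were at 159 to 184 CPM in Nono-KO and 32.7 to 110 CPM in WT cells. The motor neuron markers Chat, Syt2 and Mnx1 had no more than 3 counts in any library. Rbfox3 had 0, 1 and 8 counts in Nono-KO libraries and 0, 1 and 0 in WT libraries. Slc18a3, Slc5a7, Snap25, Isl1 and Stmn2 had no row, and none of that list was tested. Of 8 Schwann cell markers only Erbb3 and Mbp were tested. Erbb3 rose (1.59), and Mbp, myelin basic protein, fell, with 1, 0 and 1 counts in Nono-KO libraries and 28, 39 and 49 in WT libraries, while Sox10 had at most 2 counts in any library. Of 6 fibroblast markers the collagen genes Col1a1 (-0.47) and Col1a2 (-0.42), which make up nearly the whole sum, fell and Thy1 rose (0.33), while Pdgfra, Dcn and Lum had at most 9 counts in any library. Summed fibroblast markers were at 25113 to 29999 CPM in Nono-KO and 34034 to 41684 CPM in WT cells. Of the macrophage markers Csf1r fell and Cd68 did not pass, and their sum was 1.29 to 1.78 CPM in Nono-KO and 3.28 to 6.47 CPM in WT cells. The part of these marker shifts, the muscle markers above all, in the results below was not tested, and in bulk RNA fewer cells of a type and less RNA per cell cannot be told apart.

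Receptor and junction genes changed in both directions. Rose and fell are used for an adjusted p under 0.05 from edgeR's quasi-likelihood test over all 12028 genes tested. Of the 10 genes, 8 passed the filter on low counts, and Chrna1 and Chrne did not. Chrng, Chrnd, Rapsn and Agrn rose, Musk, Dok7 and Chrnb1 fell, and Lrp4 did not pass. Over the whole experiment 34.2% of the tested genes rose and 38.1% fell, 72.2% in all, so 7 calls among 8 tested genes are close to that background. The Nono-KO and WT libraries did not overlap for 7 of the 8, and for 75.1% of all tested genes, 36.1% higher and 39% lower in Nono-KO cells. At the stricter threshold of the paper (adjusted p below 0.01, more than 1 log2 unit either way), only Chrng and Musk remained, where 29.5% of all genes passed. Log2 fold changes ran from -1.17 for Musk to 1.52 for Chrng, beside a median of -0.05 over all tested genes.

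**Figure D1:**
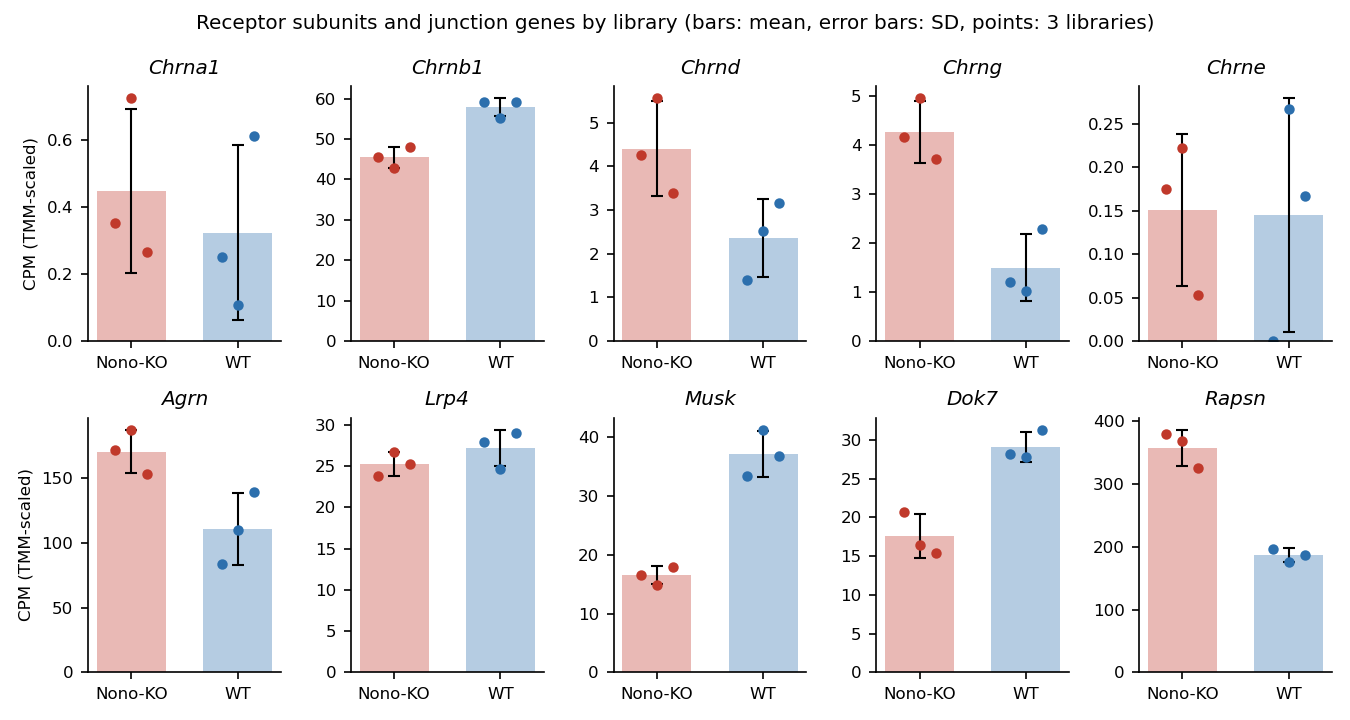
CPM after TMM scaling (vertical axes, each with its own range) of the 10 genes in Nono-KO and WT cells (horizontal axes). Each point is 1 of 3 libraries per group, with the mean as a bar and the SD as its whisker. The groups overlap for Chrna1, Chrne and Lrp4, as in Lrp4 with 25.3 ± 1.46 CPM in Nono-KO and 27.2 ± 2.23 CPM in WT cells.

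Among the 3 tested receptor subunits the fetal gene Chrng had the largest change. Chrng had 71, 89 and 70 counts in Nono-KO libraries, against 24, 19 and 41 in WT libraries. Every Nono-KO library lay above every WT library, with the third WT library closest. This was 4.27 ± 0.63 CPM in Nono-KO cells and 1.5 ± 0.68 CPM in WT cells (SD, n = 3 each), a 2.86-fold difference, or 1.52 on the log2 scale (standard error, SE, 0.29, adjusted p = 0.000635). Chrnd, the delta subunit gene and the neighbour of Chrng on chromosome 9, had 73, 100 and 64 counts in Nono-KO libraries and 28, 47 and 57 in WT libraries. The groups were again separate, but the lowest Nono-KO library, with 3.39 CPM, lay close to the highest WT library, with 3.17 CPM. Its log2 fold change was 0.91 (SE 0.30, adjusted p = 0.0159). Without Nono-KO replicate 2, its highest library, the log2 fold change was 0.72 and the call was lost (adjusted p = 0.062). Without WT replicate 1 it was smaller still, at 0.63, though the call held (adjusted p = 0.0315).

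Chrnb1, the beta subunit gene, went the other way by a smaller step. It had 45.5, 42.9 and 48.0 CPM in Nono-KO libraries, against 59.2, 55.3 and 59.2 CPM in WT libraries. The groups did not overlap, and the mean was 45.4 ± 2.56 CPM in Nono-KO cells and 57.9 ± 2.25 CPM in WT cells (SD, n = 3 each). The log2 fold change was -0.35 (SE 0.09, adjusted p = 0.00369). Chrnb1 overlaps Zbtb4 in the RefSeq annotation of GRCr8, and no source used here gives the strand setting of the counting, so reads of this pair cannot be told apart. Zbtb4, a zinc finger gene, had a log2 fold change of 0.29, opposite to that of Chrnb1.

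Chrna1, the gene of the acetylcholine-binding alpha subunit, was hardly counted in either group. It had 6, 13 and 5 counts in Nono-KO libraries and 5, 2 and 11 in WT libraries, so that the groups overlapped widely. The ratio of the totals, 24 against 18 counts scaled by library size, was 1.35 with an exact 95% interval of 0.70 to 2.64. Chrne, the adult epsilon subunit gene, had 3, 4 and 1 counts in Nono-KO libraries and 0, 5 and 3 in WT libraries. Its totals were equal, 8 counts in each group, and the ratio was 1.01 with an interval of 0.33 to 3.09. These intervals cover counting error only. With no filter on low counts edgeR gave an adjusted p of 0.533 for Chrna1 and 0.989 for Chrne, so that no difference was detectable at this depth. In RefSeq Chrne overlaps Gp1ba and C10h17orf107.

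The comparison of the fetal with the adult subunit rests on the few reads of Chrne. Of the reads of both genes, Chrng had 95.9%, 95.7% and 98.6% in Nono-KO libraries, against 100%, 79.2% and 93.2% in WT libraries. The exact 95% intervals ran from 88.6 to 99.2% in the first Nono-KO library and from 57.8 to 92.9% in the second WT library, the lowest. Fetal reads therefore outnumbered adult reads in all 6 libraries, in counts not divided by transcript length. The log2 ratio of Chrng to Chrne, with 0.5 counts added to each, was 4.74 ± 0.71 in Nono-KO cells and 3.67 ± 1.90 in WT cells (SD, n = 3 each). The difference of 1.07 was within the spread of the WT libraries (exact two-sided permutation p = 0.5, where 3 against 3 libraries cannot give less than 0.1). It was 0.15 without WT replicate 2 and 2.04 without WT replicate 1, the library with no Chrne read. Chrng rose, but whether the balance with the adult gene moved cannot be read from these counts.

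**Figure D2:**
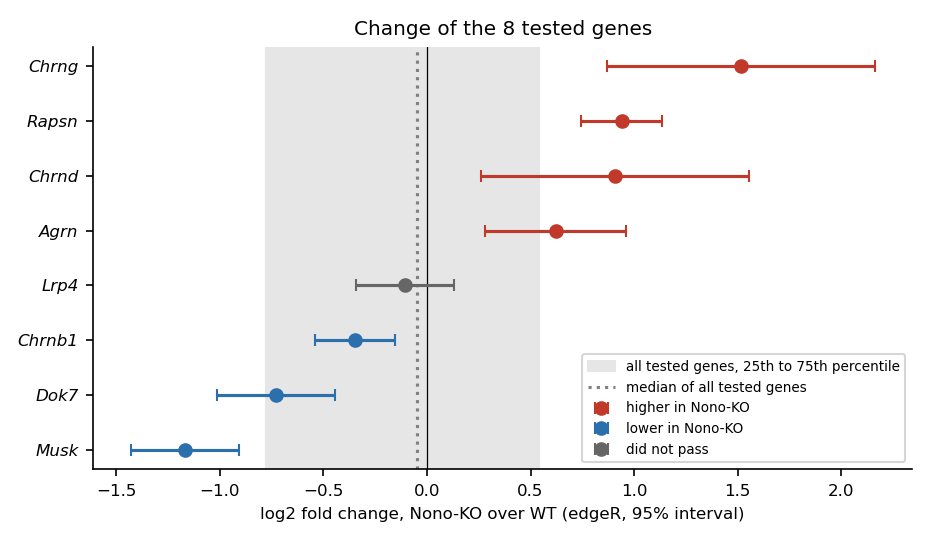
Log2 fold change of Nono-KO over WT (horizontal axis) with its 95% interval for the 8 tested genes (vertical axis). Red marks genes that rose, blue those that fell and grey the one that did not pass. Chrng lies highest at 1.52 with an interval of 0.87 to 2.16 and Musk lowest at -1.17 with an interval of -1.43 to -0.91, and the shaded band holds the middle of all tested genes, from -0.78 to 0.54.

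Set against Chrnb1 within the same library, which needs no scaling, Chrng, Chrnd and Rapsn were higher in Nono-KO cells. The log2 ratio of Chrng to Chrnb1 counts was -3.44, -3.11 and -3.68 in Nono-KO libraries and -5.60, -5.73 and -4.68 in WT libraries, a difference of 1.93. For Chrnd the ratio was -3.40, -2.94 and -3.81 in Nono-KO libraries and -5.38, -4.44 and -4.21 in WT libraries, a difference of 1.29. Both sets of libraries were separate, whereas those of Chrna1 overlapped, with mean ratios of -6.70 ± 0.78 in Nono-KO and -7.66 ± 1.08 in WT cells (SD, n = 3 each). Chrnb1 itself fell (log2 fold change -0.35), so the differences for Chrng and Chrnd exceed their own log2 fold changes. The ratios describe an unequal change of the subunit genes and were not tested. The log2 ratio of Chrng to its neighbour Chrnd was -0.03 ± 0.15 in Nono-KO cells and -0.66 ± 0.56 in WT cells (SD, n = 3 each).

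**Figure D3:**
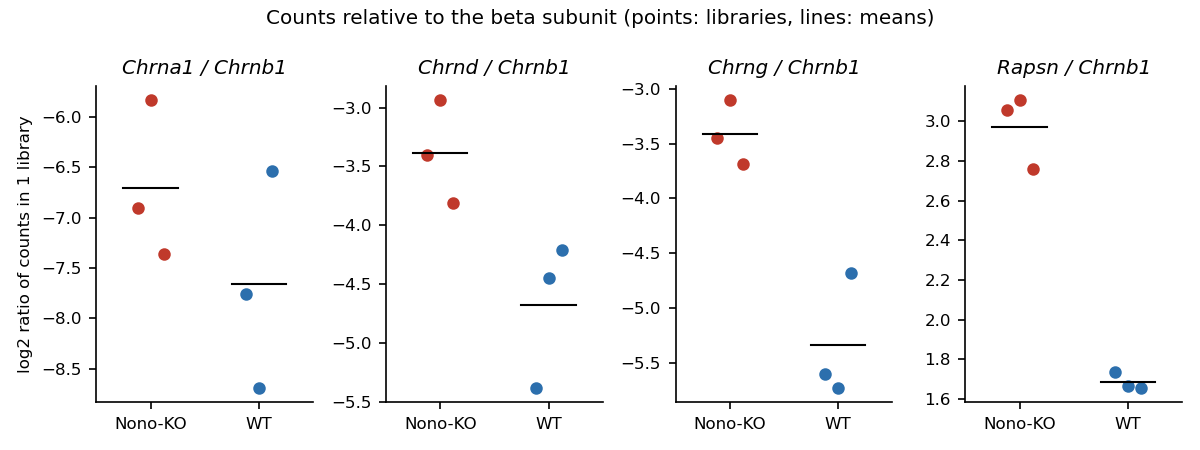
Log2 ratio of the counts of Chrna1, Chrnd, Chrng and Rapsn to those of Chrnb1 within a library (vertical axes, each with its own range), in Nono-KO and WT cells (horizontal axes). Points are libraries and lines are means, and the groups are separate for Chrnd, Chrng and Rapsn, as in Rapsn with means of 2.97 in Nono-KO and 1.69 in WT cells.

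The promoters of Chrng, Chrnd, Chrne, Chrnb1 and Musk are shown because Chrng and Chrnd rose while Chrnb1 and Musk fell. Both kinds of element named here are known from promoters of receptor subunit genes. The Chrna1 promoter was searched but is not printed. An E-box reads CANNTG and is bound by myogenic factors such as MyoD and myogenin. The N-box, with the core CCGGAA, is bound by the ETS factor GABP and is known from synapse-specific expression of Chrne and Chrnd in rodents. RefSeq windows on GRCr8, from 250 bases before to 50 bases after the annotated start, were found for 8 of the 10 genes. Rapsn and Lrp4 had no entry. Capitals mark CANNTG and CCGGAA, both searched on both strands, and no match of one overlapped a match of the other.
Chrng (chr9:95325734-95326033, + strand): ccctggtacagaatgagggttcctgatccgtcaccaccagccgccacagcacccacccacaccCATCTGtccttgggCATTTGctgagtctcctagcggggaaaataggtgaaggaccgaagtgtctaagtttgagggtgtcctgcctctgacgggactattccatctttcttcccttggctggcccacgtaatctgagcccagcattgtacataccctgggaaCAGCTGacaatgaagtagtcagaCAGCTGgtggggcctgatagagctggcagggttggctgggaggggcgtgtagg
Chrnd (chr9:95310066-95310365, + strand): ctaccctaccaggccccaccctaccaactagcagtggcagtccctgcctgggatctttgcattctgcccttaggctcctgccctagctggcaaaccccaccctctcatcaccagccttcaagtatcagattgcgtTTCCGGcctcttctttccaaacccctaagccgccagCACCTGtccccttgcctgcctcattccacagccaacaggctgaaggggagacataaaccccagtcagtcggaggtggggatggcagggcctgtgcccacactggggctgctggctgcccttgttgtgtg
Chrne (chr10:55834105-55834404, - strand): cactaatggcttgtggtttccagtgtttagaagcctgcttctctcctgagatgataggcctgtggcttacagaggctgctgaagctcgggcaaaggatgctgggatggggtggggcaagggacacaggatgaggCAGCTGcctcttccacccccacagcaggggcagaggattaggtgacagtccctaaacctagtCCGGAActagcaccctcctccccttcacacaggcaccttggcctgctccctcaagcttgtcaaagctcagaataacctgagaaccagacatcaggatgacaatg
Chrnb1 (chr10:55015058-55015357, - strand): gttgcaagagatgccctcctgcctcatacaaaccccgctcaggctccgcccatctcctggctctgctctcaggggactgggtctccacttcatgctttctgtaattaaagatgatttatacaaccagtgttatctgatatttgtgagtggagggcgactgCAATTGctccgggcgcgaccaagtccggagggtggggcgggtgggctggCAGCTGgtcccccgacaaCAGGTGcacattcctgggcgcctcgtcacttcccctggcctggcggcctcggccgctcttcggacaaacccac
Musk (chr5:77853486-77853785, + strand): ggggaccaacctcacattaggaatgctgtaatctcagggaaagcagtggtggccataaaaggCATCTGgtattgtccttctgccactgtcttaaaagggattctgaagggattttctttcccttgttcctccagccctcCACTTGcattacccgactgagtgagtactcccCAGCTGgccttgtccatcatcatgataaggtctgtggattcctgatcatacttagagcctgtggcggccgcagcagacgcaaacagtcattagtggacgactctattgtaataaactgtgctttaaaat

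Chrng had 4 E-boxes, 2 of them with the letters CAGCTG, which begin at -26 and -3 from the start. CAGCTG was found at least 2 times in 1.69% of 33465 promoter windows and at least 1 time in 15.1%. Chrna1, hardly counted here, also had 2 copies of CAGCTG, at -75 and -27, and 3 E-boxes in all. Chrnb1 and Musk, which fell, had 3 E-boxes each, 1 of them CAGCTG, at -41 in Chrnb1 and -79 in Musk. The single E-box of Chrne, at -116, was CAGCTG too. At least 3 E-boxes were found in 16.6% and at least 1 in 72.1% of all windows. Chrnd and Chrne each had 1 E-box and 1 N-box core, the core on the minus strand at -115 in Chrnd, where the printed strand reads TTCCGG, and on the plus strand at -54 in Chrne, and 14.95% of all windows had that core. Genes that rose and genes that fell thus both had E-boxes in these windows, and a match of letters is not evidence of binding.

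**Figure D4:**
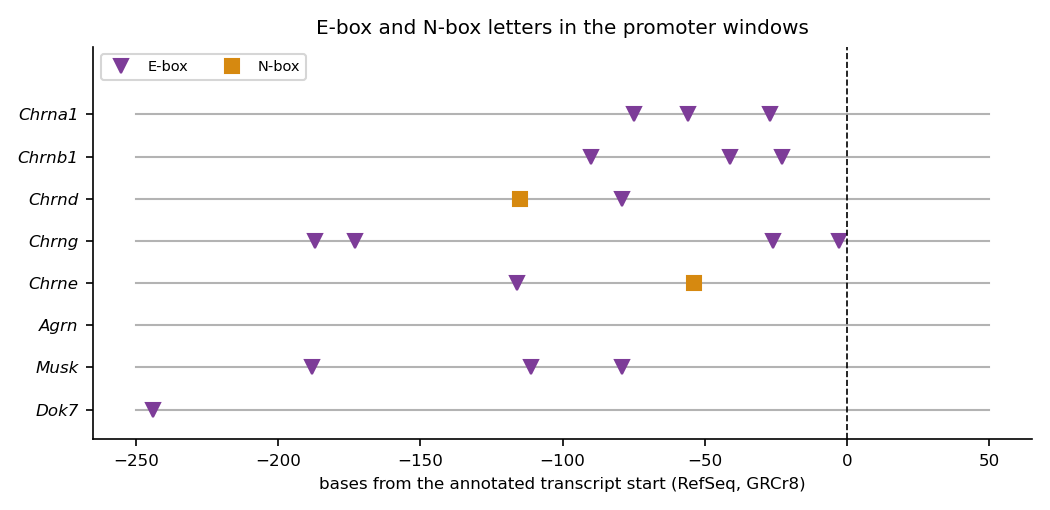
Position of E-box and N-box letters (symbols) in the RefSeq promoter windows of 8 genes (vertical axis), in bases from the annotated start (horizontal axis, dashed line at the start). Chrng carries 4 E-boxes, Chrnd and Chrne 1 E-box and 1 N-box core each, and Agrn has neither in this window.

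The receptor kinase gene of the pathway fell, and the gene of agrin, which binds LRP4, rose. Musk, the gene of the muscle-specific kinase, had 284, 268 and 339 counts in Nono-KO libraries, against 672, 771 and 659 in WT libraries. No Nono-KO library came near a WT library. This was 16.5 ± 1.52 CPM in Nono-KO cells and 37.1 ± 3.92 CPM in WT cells (SD, n = 3 each), or -1.17 as a log2 fold change (SE 0.12, adjusted p = 4.92e-06). Dok7, whose protein binds and activates MuSK from inside the cell, had 20.8, 16.5 and 15.5 CPM in Nono-KO libraries and 28.2, 27.9 and 31.3 CPM in WT libraries. The groups did not overlap, and the log2 fold change was -0.73 (SE 0.13, adjusted p = 0.000331).

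Lrp4, the agrin receptor gene, had 23.9, 26.8 and 25.2 CPM in Nono-KO libraries and 27.9, 24.7 and 29.0 CPM in WT libraries. The groups overlapped, and its log2 fold change of -0.11 had a 95% interval of -0.34 to 0.13 (adjusted p = 0.397). The log2 ratio of Lrp4 to Musk counts was 0.62 ± 0.20 in Nono-KO cells and -0.45 ± 0.26 in WT cells (SD, n = 3 each), so the ratio of the pair shifted in favour of Lrp4. In RefSeq Musk overlaps 4930522L14Rikl, and Lrp4 overlaps 2 genes of long noncoding RNAs.

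Agrn, the agrin gene, had 172, 187 and 153 CPM in Nono-KO libraries, against 83.9, 110 and 139 CPM in WT libraries. The WT libraries were spread over a wide range, and the highest of them lay just under the lowest Nono-KO library. The log2 fold change was 0.62 (SE 0.16, adjusted p = 0.00385). Agrin is also a basement membrane proteoglycan of many tissues, and only its neuronal splice forms cluster receptors strongly. Gene counts do not tell the splice forms apart. The basement membrane gene Hspg2 (perlecan) likewise varied among the WT libraries, with 1098, 1379 and 1934 CPM. It did not pass (log2 fold change 0.05, adjusted p = 0.816). Other basement membrane genes, set beside Agrn after their values were seen, moved both ways. Lamb2 (0.70), Lama5 (0.55), Col4a2 (0.43) and Col4a1 (0.27) rose. Nid1 (-1.02), Nid2 (-0.68) and Col4a5 (-0.39) fell, and Lama4 did not pass.

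Rapsn encodes rapsyn, the scaffold that binds the receptor inside the cell. It had 6481, 6634 and 6137 counts in Nono-KO libraries, against 3966, 3283 and 3352 in WT libraries. All Nono-KO libraries were far above all WT libraries. The means were 358 ± 28.8 CPM in Nono-KO cells and 186 ± 10.9 CPM in WT cells (SD, n = 3 each), a 1.92-fold difference, or 0.94 on the log2 scale (SE 0.09, adjusted p = 2.74e-06). Next to Rapsn lies Psmc3, a proteasome subunit gene, with 399, 393 and 355 CPM in Nono-KO and 255, 252 and 262 CPM in WT libraries. Psmc3 rose by 0.58 on the log2 scale (SE 0.08, adjusted p = 4.78e-05), while Celf1 on the other side of Rapsn fell (-1.14). Whether reads of a neighbour were counted for Rapsn was not tested, since the table holds counts per gene only.

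Among genes around the junction, lists of related genes held members that moved both ways. The 7 lists held 113 gene symbols, of which 97 had a row and 81 were tested. Of these, 24 rose, 40 fell and 17 missed the threshold. Over all tested genes 34.2% rose and 38.1% fell, 72.2% in all, which is the background for each list below. The median log2 fold change was -0.31 beside -0.05 over all genes. No neuronal nicotinic subunit could be tested, and the most abundant one in the table, Chrnb2, had 8, 8 and 4 counts in Nono-KO libraries and 10, 10 and 12 in WT libraries. Of the muscarinic receptors only Chrm3 was tested, with 99, 83 and 124 counts in Nono-KO libraries and 132, 127 and 132 in WT libraries (log2 fold change -0.28, adjusted p = 0.168).

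In the list of esterases and synaptic matrix, 5 of 11 tested genes rose and 3 fell. Colq, whose collagen tail anchors acetylcholinesterase in the synaptic cleft, had 11.3, 11.1 and 10.5 CPM in Nono-KO libraries and 8.11, 4.60 and 4.95 CPM in WT libraries (log2 fold change 0.89, SE 0.21). Lamb2, the synaptic laminin beta chain, rose by 0.70, while the nidogens Nid1 and Nid2, linkers of the basement membrane, fell, with log2 fold changes of -1.02 and -0.68. Ache, the esterase itself, was looked up after the other values were seen and did not pass, with 2.24 ± 0.46 CPM in Nono-KO cells and 1.70 ± 0.35 CPM in WT cells (SD, n = 3 each).

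Of 35 MuSK partners and postsynaptic scaffold genes, 17 fell and 10 rose, 8 missed the threshold, and the median log2 fold change was -0.27. Utrn, utrophin of the postsynaptic cytoskeleton, had 17.7, 21.3 and 16.8 CPM in Nono-KO libraries and 57.4, 60.3 and 56.5 CPM in WT libraries (log2 fold change -1.64, SE 0.11). Vangl2, a planar polarity gene, Apc, which links receptors to microtubules, and the kinase Abl2 also fell, with log2 fold changes of -2.82 for Vangl2, -2.31 for Apc and -1.58 for Abl2. Plec (plectin), the most abundant of the list, fell too (-0.66). A member that rose, named after its values were seen, was Scn4a (1.58), the sodium channel of skeletal muscle. Of 4 tested genes of neuregulin signalling, Erbb3, a neuregulin receptor, rose (1.59), while Erbb2, its partner (-0.59), and Erbin, whose protein binds ErbB2 (-1.48), fell and Nrg1 did not pass.

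**Figure D5:**
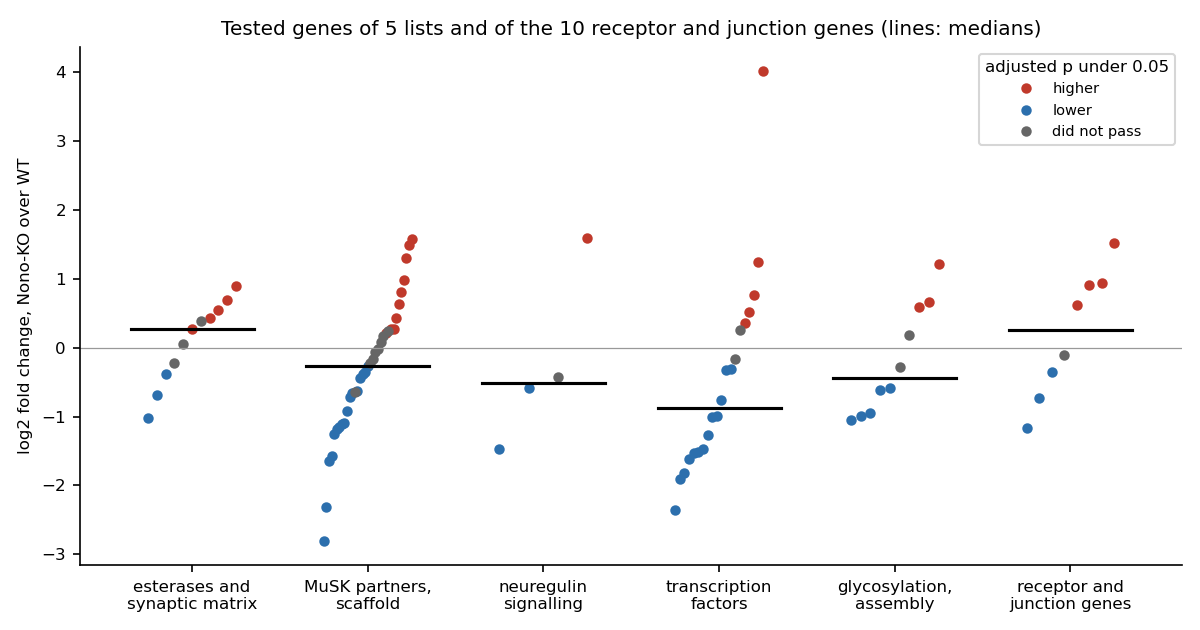
Log2 fold change of Nono-KO over WT (vertical axis) for the tested genes of 5 lists and of the 10 receptor and junction genes (horizontal axis). Colour separates genes that rose, fell or missed the threshold, and lines are medians, at -0.27 for the MuSK partners and scaffold and -0.87 for the transcription factors, where Myog stands apart at 4.03.

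Of 20 transcription factors linked to synaptic gene expression, 13 fell, 5 rose and 2 did not pass. Myog, myogenin, rose to 99.1, 117 and 101 CPM in Nono-KO libraries, against 4.63, 7.59 and 7.29 CPM in WT libraries (log2 fold change 4.03, SE 0.16). Chrng and Chrnd rose by less, and Chrna1 stayed at 2 to 13 counts in all 6 libraries. Mef2a (-2.36), Tcf12 (-1.90), an E-protein partner of myogenic factors, and Hdac9 (-1.82), a repressor of synaptic genes in innervated mouse muscle, fell. The other E-proteins of the list, named after their values were seen, moved both ways. Tcf3 rose (0.77), with means of 306 CPM in Nono-KO and 180 CPM in WT cells, and Tcf4 fell (-0.76). The subunits of the N-box factor GABP, named after their values were seen, also fell, with log2 fold changes of -1.54 for Gabpa, -1.005 for Gabpb1 and -1.47 for Gabpb2. The most abundant factor, Id3, an inhibitor of myogenic factors, had a log2 fold change of -0.17 and did not pass (adjusted p = 0.13). It passed without WT replicate 1 (-0.27, adjusted p = 0.00892). Of the other Id genes, named after their values were seen, Id1 rose (1.24) and Id2 fell (-1.27). Of 10 tested genes for glycosylation and receptor assembly, some of them genes of congenital myasthenia, 5 fell, 3 rose and 2 did not pass. Canx, a chaperone of receptor assembly (-1.05), Gfpt1, an enzyme of hexosamine synthesis (-0.99), and Alg2, a mannosyltransferase (-0.94), fell, and Dpm3, of dolichol-phosphate-mannose synthesis, rose by 1.22. Hspa5, the most abundant of the list and a chaperone of the endoplasmic reticulum, fell too (-0.62).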

How the data were processed

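RNA of H9c2 cells was sequenced as 3 Nono-KO and 3 WT libraries. The authors deposited raw whole-number counts per gene symbol, unscaled and 1 column per library, and the file of each library held the same values. Trimmomatic, HISAT2, HTSeq and the mRatBN7.2 build are listed in the processing notes of the submitters, whereas Bowtie2 and Rn6 stand in the methods of the paper. No source used here gives the annotation or strand setting, so reads shared by overlapping genes may have been split or dropped.

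Counts were analysed in R 4.3.3 with edgeR 4.0.16 (TMM, filterByExpr, robust quasi-likelihood test, Benjamini-Hochberg adjustment). The filter kept 12028 of 16319 genes. Standard errors came from the fold change and the F statistic. DESeq2 1.42.0, size factors, library totals, other filters, a non-robust fit, the replicate number as a block, the paper's threshold and leaving out each library were tried. Ratios and intervals were computed in Python 3.11.15 with SciPy 1.17.1. Genes and lists were chosen with earlier results of these data known. The text names all 10 genes, and from each list up to 4 passing genes with the largest change and at least 1 CPM and its most abundant member. Library totals were 17612958 to 19253858 counts, too few for a precise fold change of genes with a few counts. No pair of libraries of a group agreed within sampling noise (chi-square per degree of freedom 2.69 to 25.5).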

Additional observations from a re-analysis of the deposited data

How the results depend on the processing

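The 4 genes that rose and the 3 that fell kept their direction under every alternative run, and all but Chrnd kept an adjusted p under 0.05. Chrnd had an adjusted p between 0.0054 and 0.062, the highest without Nono-KO replicate 2. Its log2 fold change ranged from 0.63, without WT replicate 1, to 1.17. The log2 fold change ranged from 1.30 to 1.94 for Chrng, from -1.24 to -1.09 for Musk, from 0.88 to 1.04 for Rapsn, from 0.45 to 0.81 for Agrn, from -0.86 to -0.61 for Dok7 and from -0.40 to -0.30 for Chrnb1. An adjusted p under 0.01 with an absolute log2 fold change over 1 left 1 of the genes higher and 1 lower, 7 and 20 genes of the lists, and 1294 and 2252 of all genes. Hspg2 turned its sign, to -0.000193 with library totals, to -0.13 without WT replicate 1 and to -0.03 without Nono-KO replicate 2, within a leave-one-out range of -0.13 to 0.29, and passed in none of these, and the cause was not tested. Id3 passed with library totals (-0.22, adjusted p = 0.0379) and without WT replicate 1 (-0.27, adjusted p = 0.00892), and the cause was not tested. Same-numbered libraries did not deviate together (r from -0.19 to 0.05), and with the replicate number as a block 4 of the genes rose and 3 fell, 23 and 40 of the lists, and 3944 and 4443 of all genes. The Chrng to Chrne difference was 1.07 with the block, 0.47 with 0.1 counts added and 1.24 with 1 count added. Leaving out a library gave 0.15 to 2.04. Depth limits Chrna1 and Chrne, which have no precise fold change.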

Other observations

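Among the neuronal nicotinic subunits, Chrna10, chosen after its values were seen, had 2, 4 and 3 counts in Nono-KO libraries and no count in WT libraries. Against an assumed floor of 3 counts over the WT libraries the ratio is 3.03. This is a bound and not an observed ratio, and it leaves out the counting error of the 9 Nono-KO reads. The counts are too few for the test.

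By the root mean square difference of centred log2 CPM over the 6 libraries, the genes most like Musk among 11286 compared were Arhgap11a (0.04), Atg12 (0.04), Nol11 (0.04), Lrp12 (0.04) and Mosmo (0.05). Each averaged less in Nono-KO than in WT cells, as in Lrp12 with 26.6 CPM in Nono-KO and 58.2 CPM in WT cells. That follows from the choice by likeness to Musk, which fell, and is no separate result. The genes closest to Chrna1 were Lrrc27 (0.17), Tmprss9 (0.31), Spin2a (0.33), Bricd5 (0.39) and Acot11 (0.40), and the few counts of Chrna1 limit this order.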
